A study of Mus musculus with 3 samples.

Results

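The Zbtb genes were taken as the mouse protein-coding genes whose RefSeq symbol starts with Zbtb, which gave 40 genes of 21883 protein-coding genes on the mm10 chromosomes. Binding of Tcf1, an HMG-box transcription factor encoded by Tcf7, had been mapped by chromatin immunoprecipitation and sequencing with an antiserum against Tcf1. CD4 T cells were sorted from the spleen of wild-type Foxp3-Cre-GFP mice aged 8 to 10 weeks, in which the Foxp3 gene drives Cre and the green reporter. Conventional cells were TCRb+ CD4+ CD25- and negative for the reporter, although the tissue label of that sample calls them effector cells, and regulatory T cells (Treg cells) were TCRb+ CD4+ CD25+ and positive for it. Each cell type had 1 library and 1 deposited peak list, with 4519 conventional and 3402 Treg peaks, and the labels do not say whether animals were pooled. A library of Tcf1-deficient CD4 T cells (CD4-Cre+ Tcf1 fl/fl) was not analysed here. Neither list carries read counts, which leaves the depth unknown, and without replicates every comparison below sets 1 list beside the other and carries no test. Intervals in brackets are exact Clopper-Pearson intervals at 95% and cover counting error only.

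Most Zbtb genes encode proteins with a BTB domain at the amino end, through which they pair with each other and recruit corepressors, and with zinc fingers at the carboxyl end that bind DNA. In lymphocytes members of the family are known as lineage and cell state regulators. Zbtb16 (PLZF) directs natural killer T cells, Zbtb17 (Miz-1) is a partner of Myc and acts in lymphoid progenitors, Zbtb1 is required for lymphoid development, and Zbtb32 restrains cytokine production and proliferation. Zbtb8os fits the symbol rule but encodes archease, a cofactor of the tRNA ligase, and not a zinc finger protein.

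A Tcf1 peak was assigned to 13 of the 40 Zbtb genes in at least 1 list, and 27 had none. A peak counted for a gene if its midpoint lay in the gene span, or if that gene was the nearest protein-coding gene within 100 kb. Zbtb2, Zbtb5, Zbtb12, Zbtb20, Zbtb38 and Zbtb40 carried peaks in both lists, Zbtb7a, Zbtb8os, Zbtb24, Zbtb37 and Zbtb45 in the conventional list alone, and Zbtb1 and Zbtb11 in the Treg list alone. Each of these genes had 1 peak per list, except Zbtb38, which had 3 conventional peaks and 1 Treg peak. The sequences that follow are a selection from RefSeq start windows under these peaks.

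The window of a gene is the 250 bases before its annotated start and the 50 after it (RefSeq, GRCm38.p6, whose primary chromosomes are those of mm10), and 35 of the 40 Zbtb genes have one. Only bases before the start were searched and are shown, 5′ to 3′ in the direction of the gene, with matches in capitals. The letters searched on both strands were CTTTGAA and CTTTGAT for TCF/LEF, CCGGAA for ETS factors and TGTGGTT for Runx, and none of these overlaps another in the stretches shown. The start of Zbtb5, and the start of the noncoding gene 4932412D23Rik at the upstream end of the Zbtb20 span, are shown because peaks of both lists covered a TCF/LEF match there. The first stretch lies at chr4:45012413-45012662 (minus strand) and the other at chr16:42875588-42875688 (minus strand, in the direction of 4932412D23Rik).
Zbtb5: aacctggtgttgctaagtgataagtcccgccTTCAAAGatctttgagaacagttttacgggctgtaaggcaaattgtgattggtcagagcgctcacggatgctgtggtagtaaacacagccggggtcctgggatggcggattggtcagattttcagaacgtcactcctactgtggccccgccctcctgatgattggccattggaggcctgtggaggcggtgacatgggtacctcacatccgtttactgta
4932412D23Rik: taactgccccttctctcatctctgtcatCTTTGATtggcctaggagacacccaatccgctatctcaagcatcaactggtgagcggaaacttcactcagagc

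Zbtb24, Zbtb37 and Zbtb45 are shown because a peak of the conventional list alone covered ETS letters just before the start. Zbtb24 is chr10:41450108-41450357 (plus strand), Zbtb37 is chr1:161034865-161035099 (minus strand), and the stretches of 30 bases for Zbtb45 are chr7:13009919-13009948 and chr7:13009877-13009906 (minus strand). The Zbtb45 stretches lie inside the Zbtb45 span, because the annotated start used is internal to it.
Zbtb24: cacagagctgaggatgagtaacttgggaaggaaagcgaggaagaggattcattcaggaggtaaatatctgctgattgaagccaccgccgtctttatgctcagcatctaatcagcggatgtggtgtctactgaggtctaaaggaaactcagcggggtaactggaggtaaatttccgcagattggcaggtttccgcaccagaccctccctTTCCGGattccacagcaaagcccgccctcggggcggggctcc
Zbtb37: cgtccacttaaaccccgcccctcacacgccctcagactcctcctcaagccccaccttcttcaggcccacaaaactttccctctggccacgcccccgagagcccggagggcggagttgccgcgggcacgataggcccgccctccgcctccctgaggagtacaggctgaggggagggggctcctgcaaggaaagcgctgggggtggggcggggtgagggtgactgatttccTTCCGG
Zbtb45: gcgcggaccagaCCGGAAgttctgctcaac
Zbtb45: taaagaggaacaCCGGAAacgtgctcccga

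Zbtb11 and Zbtb1 are shown because their starts were covered in the Treg list alone. The stretches are the 30 bases before each start, at chr16:55973774-55973803 and chr12:76370490-76370519 (both plus strand). Each lies inside the span of its own gene, because the annotated start used is internal to the span. The Zbtb11 stretch holds ETS letters and the Zbtb1 stretch holds none of the letters searched.
Zbtb11: cccgccccgctcccgcgcgtcacTTCCGGt
Zbtb1: ccggagtcgccgcgtaagcggggccggctc

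Counted over the family, a conventional peak was present at 11 of 40 Zbtb genes, or 27.5% (14.6% to 43.9%). The background was 16.3% of all protein-coding genes, inside that interval. A Treg peak was present at 8 of 40, or 20% (9.05% to 35.6%), against 12.3% of all protein-coding genes. Peaks in both lists were present at 6 of 40, or 15.0% (5.71% to 29.8%), against 8.17%. Conventional peaks alone were found at 5 of 40, or 12.5% (4.19% to 26.8%), against 8.10%, and the reverse at 2 of 40, or 5.0% (0.611% to 16.9%), against 4.13%. In each of these 5 counts the background lay inside the interval of the family's share. Active and widely expressed genes were not set apart in that background, and their part in the shares was not tested.

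**Figure D1:**
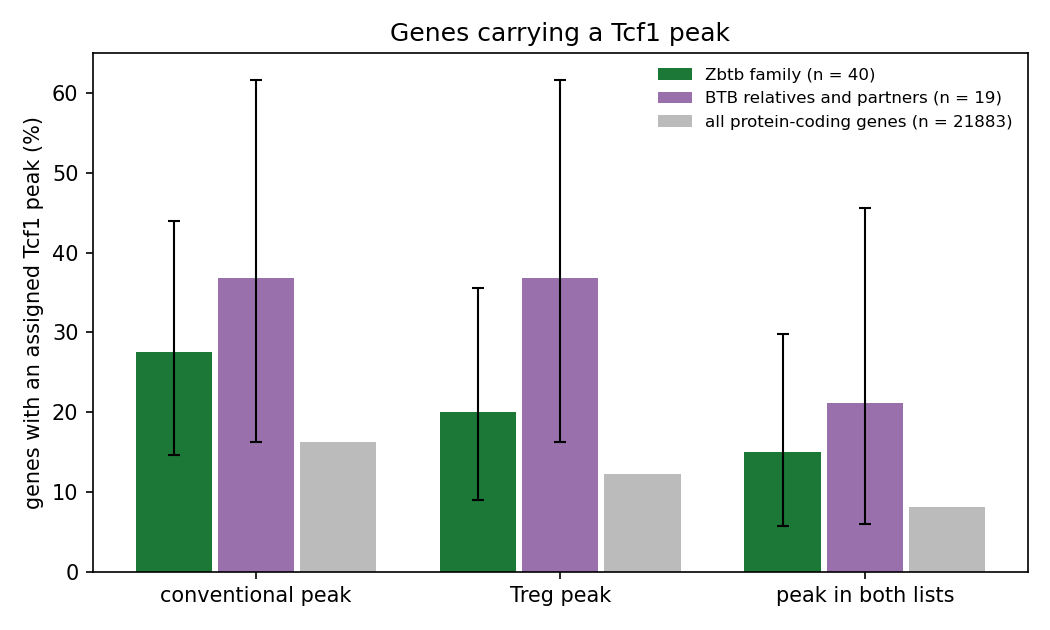
Percent of genes with an assigned Tcf1 peak (vertical axis) in the conventional list, the Treg list and both, for the 40 Zbtb genes, 19 BTB relatives and partners, and all 21883 protein-coding genes. Error bars are exact 95% intervals for counting error; the grey bars stand at 16.3%, 12.3% and 8.17%, and the Zbtb bars at 27.5%, 20% and 15.0%.

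Zbtb20, which encodes a repressor known from plasma cells, liver and hippocampus, carried the widest peaks of the family in both lists. The conventional peak (chromosome 16, 42875003 to 42876349) was 1347 bp wide and rank 25 of 4519 by width. The Treg peak (42875098 to 42876162) was 1065 bp wide, rank 60 of 3402, and lay wholly within the conventional one, with midpoints 46 bp apart. Both straddled the upstream end of the Zbtb20 span (42875689 to 43634392), where the gene begins, and the midpoints lay 13 and 59 bp outside it. That place is also the start of the noncoding gene 4932412D23Rik, which holds both midpoints, so the peaks cannot be given to either gene by position. The only Zbtb20 start with a window lay inside the span, 371608 bp downstream of the conventional midpoint. No peak of either list lay elsewhere in the 758704 bp span. The CTTTGAT letters shown above, 73 bases before the 4932412D23Rik start (42875654 to 42875660), were inside both peaks.

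Zbtb5 was the only gene of the 35 whose start window was covered in both lists. Zbtb5 and Zbtb2 are reported repressors of Cdkn1a, the gene for the cell cycle inhibitor p21. The conventional Zbtb5 peak (chromosome 4, 45012160 to 45012747) was 588 bp wide and the Treg peak (45012380 to 45012686) 307 bp, and the Treg peak again lay wholly inside the conventional one. The midpoints were 42 and 121 bp before the annotated start. The CTTTGAA match, read on the reverse strand of the Zbtb5 sequence shown above, begins 219 bases before the start (45012625 to 45012631) and was inside both peaks. It also stands 185 bases before the start of the divergent noncoding gene 1700055D18Rik.

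At Zbtb2 the peaks lay inside the gene and downstream of its start. The conventional peak (chromosome 10, 4386729 to 4387500) was 772 bp wide, rank 345 of its list, with its midpoint 993 bp after the start. The Treg peak (4386733 to 4387112) was 380 bp wide with its midpoint 1185 bp after the start. Their left edges were 4 bp apart, so the difference in width lay on the side of the start.

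Zbtb40 and Zbtb12 had peaks in both lists, and their conventional peaks were near that list's median width of 428 bp. Zbtb40 (chromosome 4, 136979732 to 137048820) had them at the end with the higher coordinate. The conventional peak (137048659 to 137049080) was 422 bp wide and the Treg peak (137048722 to 137048961) 240 bp, the smallest width in the Treg list. Their midpoints lay 50 and 22 bp outside the span. Zbtb40 has no start window, so these peaks were not set against an annotated start. Zbtb12 is a short gene of 2309 bp. Its conventional peak (chromosome 17, 34896191 to 34896610) was 420 bp wide and its Treg peak (34896346 to 34896665) 320 bp, with an overlap of 265 bp. The Zbtb12 midpoints lay 1842 and 1947 bp after the start, toward the end of the gene that faces Ehmt2, a histone methyltransferase gene whose span begins at 34898463.

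Zbtb38, whose product binds methylated DNA, was the member with the most peaks, and its lists differed in place. Both lists had a peak 41708 bp (conventional) and 41795 bp (Treg) outside the gene, inside the noncoding gene C430002N11Rik. There the Treg peak (chromosome 9, 96773233 to 96773707) was 475 bp wide and the conventional peak (96773214 to 96773552) 339 bp. The other conventional peaks lay inside the gene, at 96696266 to 96696990 (725 bp) and at 96718902 to 96719306 (405 bp), the latter with its midpoint 341 bp after an internal annotated start. No Treg peak lay in the Zbtb38 span or within 10 kb of it. With a limit of 20 kb in place of 100 kb, Zbtb38 therefore had conventional peaks only. The related methyl-DNA binders Zbtb4 and Zbtb33 had no peak assigned.

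Start windows were covered by conventional peaks at 6 of 35 Zbtb genes, or 17.1% (6.56% to 33.6%), against 11.3% of the 17491 protein-coding genes with a window. For Treg peaks it was 3 of 35, or 8.57% (1.80% to 23.1%), against 7.11%, and for both lists 1 of 35, or 2.86% (0.0723% to 14.9%), against 4.75%. The conventional set was Zbtb5, Zbtb8os, Zbtb14, Zbtb24, Zbtb37 and Zbtb45, and the Treg set was Zbtb1, Zbtb5 and Zbtb11. Of the 8 Zbtb starts covered in either list, 1 was covered in both, or 12.5% (0.316% to 52.7%), beside 34.7% of the 2392 such starts over all protein-coding genes. The background shares lay inside all of these intervals. Peaks of both lists at a span end of Zbtb20 and Zbtb40 do not enter these counts. Zbtb40 has no window, and the Zbtb20 window lies far inside its span.

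Zbtb24, mutated in human ICF syndrome with immunodeficiency, had a conventional peak over its start (chromosome 10, 41450105 to 41450552), 448 bp wide, with its midpoint 29 bp before the start. At Zbtb37 the conventional peak (chromosome 1, 161034789 to 161035296) was 508 bp wide. It covered the Zbtb37 start and also the start window of Gas5, the divergent host gene of small nucleolar RNAs, whose span holds the midpoint. The Zbtb8os peak (chromosome 4, 129335536 to 129336012), 477 bp wide, likewise touched the start window of Rbbp4, a histone-binding chromatin protein gene. That start lies at the end of the Rbbp4 span (129307100 to 129335370) that faces Zbtb8os. At Zbtb45 the peak (chromosome 7, 13009244 to 13009996) was 753 bp wide, rank 377 of its list, with its midpoint 232 bp after the start. At these 4 genes no Treg peak overlapped the conventional one, nor did any Treg midpoint lie within 1000 bp of its midpoint.

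Zbtb7a, whose product (LRF) acts in B against T lineage choice and in globin silencing, had a conventional peak inside the gene (chromosome 10, 81137431 to 81137989). It was 559 bp wide and lay with its midpoint 1439 bp after the start, outside the window, and had no Treg counterpart. A further peak of each list lay within 10 kb of Zbtb7a, nearer to Map2k2. The Treg-only peaks were at Zbtb1 and Zbtb11. The Zbtb1 peak (chromosome 12, 76370328 to 76371005) was 678 bp wide, rank 257 of 3402, and the wider of the 2. Its midpoint was 147 bp after the Zbtb1 start and 453 bp outside the span of the divergent neighbour Zbtb25, to which it was not assigned. At Zbtb11 the peak (chromosome 16, 55973605 to 55973974) was 370 bp wide, close to the list's median of 366 bp. Its midpoint lay 14 bp before an internal annotated start, 2353 bp inside the Zbtb11 span, and also inside the noncoding gene Zbtb11os1.

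**Figure D2:**
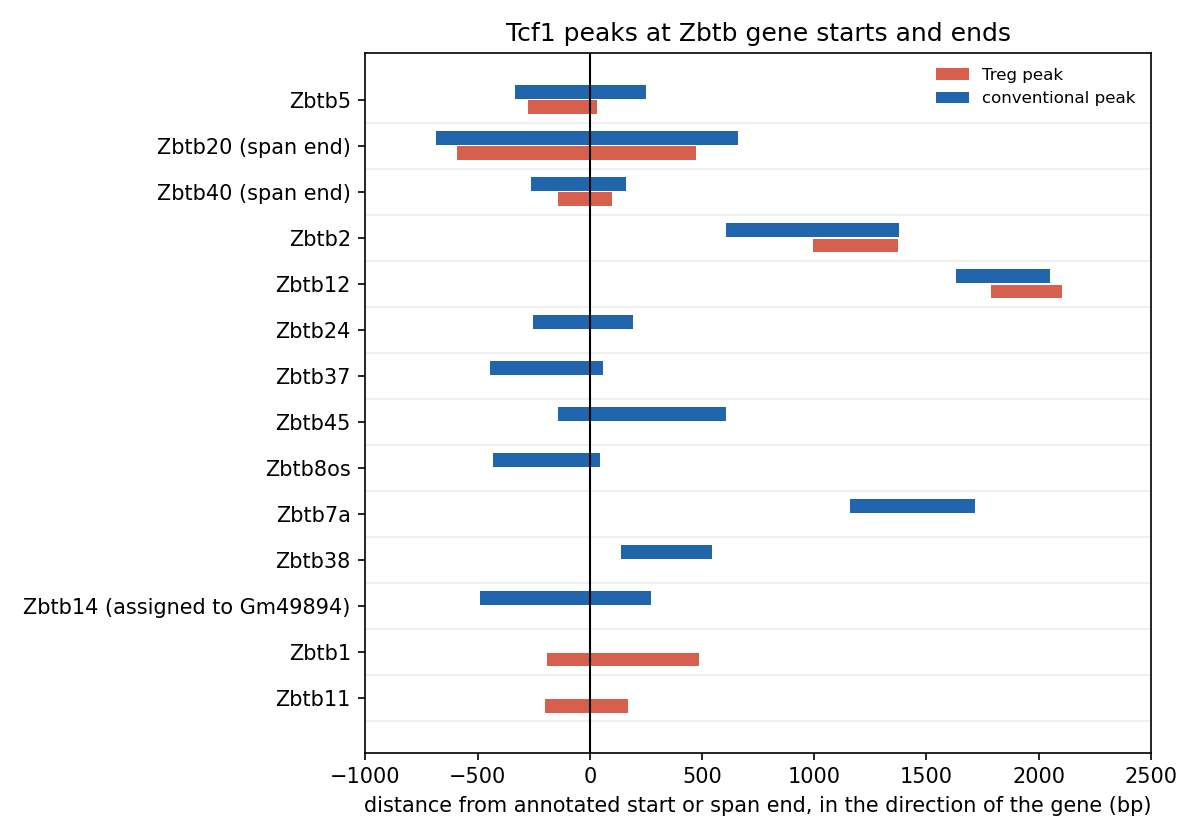
Extent of each peak (bars, blue conventional and red Treg) in bp from the nearest annotated start (line at 0), in the direction of the gene, or for Zbtb20 and Zbtb40 from the span end with values below 0 outside the span. That end is the upstream end at Zbtb20 and the end with the higher coordinate at Zbtb40, which has no start window. Peaks of both lists overlap at the upper 5 genes, starts of Zbtb24, Zbtb37, Zbtb45, Zbtb8os and Zbtb14 are covered by conventional bars only and those of Zbtb1 and Zbtb11 by Treg bars only; the other Zbtb38 peaks lie beyond the axis.

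In the conventional list 6 of 13 Zbtb peaks overlapped a Treg peak, or 46.2% (19.2% to 74.9%), beside 42.8% of all 4519 peaks. In the Treg list 6 of 8 overlapped a conventional peak, or 75% (34.9% to 96.8%), beside 56.9% of all 3402 peaks. The remaining 7 conventional and 2 Treg peaks had no counterpart by overlap or by midpoint. Midpoints lay within 1 kb of an end of the gene span for 9 of 13 conventional peaks (69.2%, 38.6% to 90.9%), beside 48.8% of all assigned peaks of that list, and for 5 of 8 Treg peaks (62.5%, 24.5% to 91.5%), beside 44.0%.

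The conventional peak was the wider one in 5 of the 6 overlapping pairs at Zbtb genes, and Zbtb38 was the exception. Over all 1935 such pairs of the lists the conventional peak was wider in 69.8%. The median ratio of conventional to Treg width was 1.54 for the 6 pairs and 1.17 for all. Zbtb peaks had a median width of 508 bp (339 to 1347 bp) in the conventional list and 375 bp (240 to 1065 bp) in the Treg list, beside 428 and 366 bp for all peaks. The 7 conventional peaks without a Treg counterpart ran from 405 bp at Zbtb38 to 753 bp at Zbtb45, with a median of 508 bp, beside 388 bp for all conventional peaks of that kind.

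**Figure D3:**
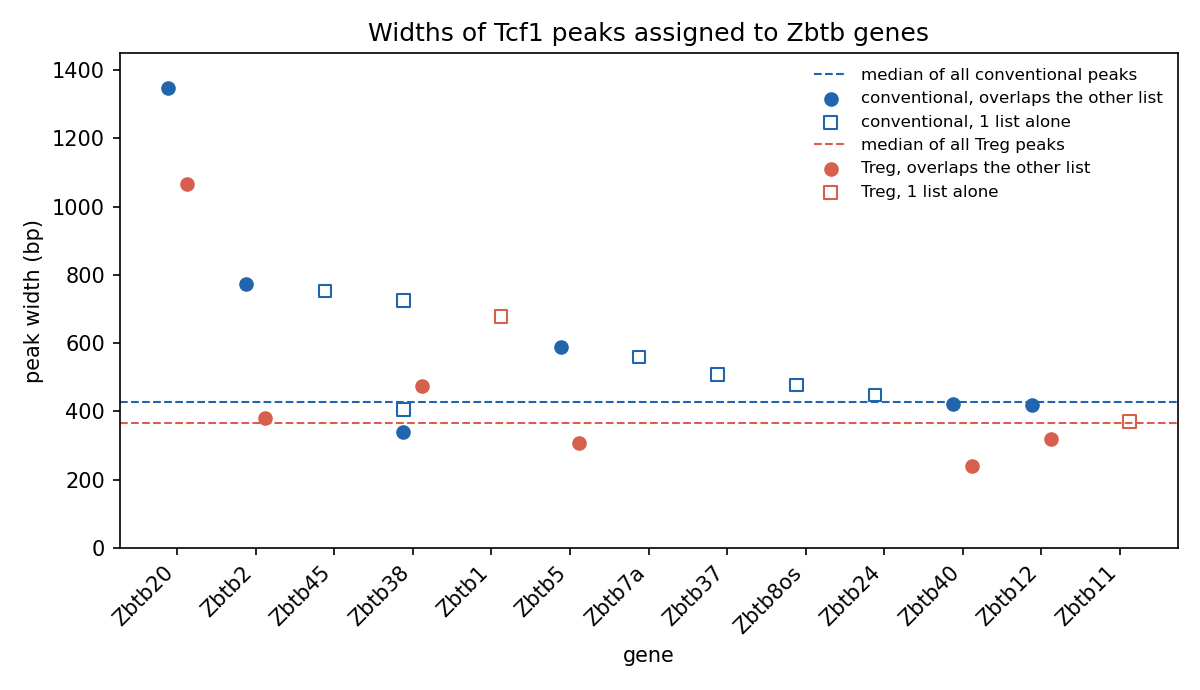
Width in bp of each peak assigned to a Zbtb gene (vertical axis), by gene, in the conventional (blue) and Treg (red) lists. Filled circles overlap the other list and open squares do not, the dashed lines are the medians of all conventional (428 bp) and Treg (366 bp) peaks, and Zbtb20 stands highest in both lists at 1347 and 1065 bp.

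The letters in the start windows were described over genes. A gene counted if any of its windows held the letters. At a gene with several starts that window need not be the covered one. TCF/LEF letters were present at 3 of 35 Zbtb genes (8.57%), beside 7.87% of all protein-coding genes with a window and 8.78% of those whose window a peak of either list covered. Of the 8 Zbtb genes with a covered window, Zbtb5 alone had them. ETS letters were present at 13 of 35 Zbtb genes (37.1%), beside 16.9% of all and 33.4% of those with a covered window. Among the 8 covered Zbtb windows they stood in 4, at Zbtb11, Zbtb24, Zbtb37 and Zbtb45. Runx letters were present at 2 of 35 (5.71%), beside 4.51% of all, and of the covered windows in that of Zbtb14 alone. A match of letters describes the sequence and does not show a bound site. For G and C content, a gene with several annotated starts was given the highest value among them. The bases before the start were rich in G and C at Zbtb genes with a peak (median 66.8%) and at those without (67.6%), beside 62.4% and 54.4% for all protein-coding genes with and without a peak. Zbtb genes with a peak had a median span of 21.2 kb and those without 18.1 kb, beside 28.6 and 14.9 kb over all protein-coding genes.

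The other 27 members had no assigned peak in either list. Among them were the lymphocyte regulators Zbtb16, Zbtb17, Zbtb25 and Zbtb32, the dendritic cell marker Zbtb46, the telomere binders Zbtb10 and Zbtb48, and Zbtb18, a repressor of neuron development. The others were Zbtb3, Zbtb4, Zbtb6, Zbtb7c, Zbtb8a, Zbtb8b, Zbtb9, Zbtb14, Zbtb21, Zbtb22, Zbtb26, Zbtb33, Zbtb34, Zbtb39, Zbtb41, Zbtb42, Zbtb43, Zbtb44 and Zbtb49. Zbtb16 spans 184429 bp and Zbtb7c 328387 bp, so the largest of the members without a peak were longer than any member with one except Zbtb20. Absence from a filtered list of unknown depth does not show absence of binding.

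Zbtb14 stood among these only because of the assignment. A conventional peak 760 bp wide (chromosome 17, 69382687 to 69383446), rank 366 of 4519, covered its annotated start, with the midpoint 108 bp before it. The midpoint lay inside Gm49894, a predicted protein-coding gene (69380743 to 69384181) that overlaps the Zbtb14 start, and so the peak was given to Gm49894. No Treg peak overlapped it.

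The relatives and partners of the family were described in the same way, from a list of 19 genes. A conventional peak was present at 7 of 19 (36.8%, 16.3% to 61.6%) and a Treg peak at 7 of 19 (36.8%, 16.3% to 61.6%), beside 16.3% and 12.3% of all protein-coding genes. Peaks in both lists were present at 4 of 19 (21.1%, 6.05% to 45.6%), beside 8.17%. The Treg background lay below the interval and the conventional one at its lower bound, in a list chosen with earlier results of these data known and not tested here. Of the 8 other BTB zinc finger genes, Bcl6 had 2 peaks in each list, Mynn 1 conventional peak and Patz1 1 Treg peak, while Bcl6b, Hic1, Hic2, Gzf1 and Zfp131 had none. The shared Bcl6 peak was 488 bp wide in the conventional and 418 bp in the Treg list. Of the BTB factors with a basic leucine zipper, Bach2 had 7 conventional and 3 Treg peaks and Bach1 1 Treg peak inside the gene (chromosome 16, 87698931 to 87699284).

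Among the 9 corepressors and ligase components through which BTB factors act, Bcor, a corepressor bound by Bcl6, had 1 conventional and 2 Treg peaks. Of these, 1 Treg peak (chromosome X, 12135342 to 12135652) had no conventional counterpart. Hdac2, a histone deacetylase, had 1 peak in each list. The conventional peak (chromosome 10, 36974302 to 36974583) and the Treg peak (36974562 to 36974917) overlapped at their edges only. Ncor1 and the scaffold Sin3a had a conventional peak alone, 651 and 475 bp wide, and Cul3, the scaffold of a ubiquitin ligase, a Treg peak alone, 407 bp wide. Sin3b, Hdac1, Hdac3 and Bcorl1 had none. The intervals for all 19 relatives and partners overlapped those of the Zbtb genes in each list. Their lower bound was 16.3% in both lists, beside 16.3% (conventional) and 12.3% (Treg) of all protein-coding genes.

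The labelled cell types cannot be checked from a peak list, which holds no expression. At 4 marker loci, Il2ra had 1 peak in each list, Cd3e had 2 conventional and 1 Treg, and Cd4 and Foxp3 had none in either.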

How the data were processed

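Peak positions in bp, in 3 columns (chromosome, start and end), are what the authors deposited for 2 of 3 samples, with no score, height or p-value. Per the submitters' processing notes, FastQC, Bowtie2 2.3.4.1, MACS2 2.1.1 and the mm10 build were used, without roles. The filter, the control and any pooling of libraries are not stated there. Peak number and width can move with depth where the threshold does.

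Computation used Python 3.11.15, numpy 2.4.6, pandas 2.3.3, scipy 1.17.1 and matplotlib 3.10.9. Gene spans and start windows came from RefSeq tables of GRCm38.p6, matched by symbol and gene ID; spans carry no exons, and no genome sequence was used. Of the peaks, 4380 conventional and 3191 Treg were assigned to a protein-coding gene. Overlap was at least 1 bp, and a peak counted as found in 1 list alone where the other list had no overlapping peak and no midpoint within 1000 bp. Positions are 1-based. Assignment and overlap were tested on simulated data. All Zbtb genes with a peak are named, with all coordinates; Zbtb14 was singled out with its values in view. The members and lists were chosen with earlier results of these data known. The family had 1 further member, and the list of partners 1 further gene, that are not reported here. With 1 library per cell type nothing was tested between cell types. Other settings for distance, overlap, peak width and list length were tried, and 1, which left out Zbtb8os, was added after seeing the data.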

Additional observations from a re-analysis of the deposited data

How the results depend on the processing

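With midpoints required to lie inside the span, 6 Zbtb genes had a conventional peak, 4 a Treg peak and 2 both. With every peak within 10 kb of a span counted, 17 had a conventional peak and 10 had both, since peaks nearer to another gene were then included. In the wider part of each list (2274 conventional and 1706 Treg peaks), 5 had a Treg peak and 3 had both, with fewer peaks entering. The share of Zbtb peaks that overlapped the other list fell in that wider part from 46.2% to 22.2% (2 of 9) for conventional and from 75% to 40% (2 of 5) for Treg peaks, where a peak whose counterpart was removed counted as unshared. With midpoints inside the span these shares were 28.6% (2 of 7) and 50% (2 of 4). The wide intervals of the main shares include all of these values. The other recomputed counts stayed within 1.5 times the main count. Leaving out Zbtb8os, an alternative chosen after seeing the data, gave 10 of 39 genes with a conventional peak. No paired analysis was possible because each cell type has 1 library. Depth is unknown, so a gene without a peak may be below the calling threshold.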

Other observations

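Some peaks lay within 10 kb of a Zbtb gene but fell to another gene, and were not among the peaks assigned to the family. Peaks of both lists that overlapped each other lay 6987 bp (Treg) and 7368 bp (conventional) outside Zbtb4, at Polr2a, which encodes the large subunit of RNA polymerase II, and the Treg peak there was 1373 bp wide beside 699 bp in the conventional list. That is the opposite order of widths to 5 of the 6 pairs at Zbtb genes. Overlapping peaks also lay 1781 and 1793 bp outside Zbtb41, inside Aspm, a gene of the mitotic spindle. At Zbtb11 overlapping peaks lay 4926 and 4945 bp outside the span, inside the ribosomal protein gene Rpl24, so that the neighbour carried peaks of both lists while the Zbtb11 start carried a Treg peak alone. Near Zbtb1, whose start also carried a Treg peak alone, a conventional peak without a Treg counterpart lay 7170 bp outside the span, at Hspa2. Near Zbtb46 a conventional peak lay 5558 bp outside the span, and near Zbtb48 a Treg peak 8664 bp outside, each without a counterpart in the other list.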
